A study of Mus musculus with 8 samples.

Results

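A set of costimulatory and adhesion receptor genes, put together as receptors of conventional T cells, was followed in intraepithelial lymphocytes (IELs) of the mouse gut. They were 10 genes, Icos, Cd28, Cd2, Cd5, Cd6, Cd27, Cd226, Crtam, Slamf6 and Slamf7, picked by symbol from the 25230 gene symbols of the count table, and all 10 were in it. The list was drawn up with the exendin-4 and PBS values of these same libraries known. The differences between the groups are therefore descriptions, and no test of them is read as evidence. All 10 passed the filter on low counts that left 14691 genes for the fit.

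T cells are switched on through their CD3 receptor complex together with costimulatory receptors that meet ligands on other cells. CD28 and ICOS belong to the immunoglobulin family that binds B7 proteins, CD2 and the SLAM receptors bind each other or themselves, and CD27 is a receptor of the TNF receptor family. Conventional T cells, and the induced IELs that descend from them, are known to carry CD2, CD5 and CD28, whereas natural IELs of the mouse gut are known to hold little of these proteins on their surface.

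The 8 libraries came from 8 C57BL/6J mice, of unstated age and sex. In the Ex4 group 4 mice received 35 µg of an anti-CD3 antibody and 10 nmol/kg of exendin-4 (Ex4), a peptide that activates the receptor for GLP-1. In the PBS group 4 mice received the same antibody dose with PBS, so every animal carried the CD3 stimulus and no unstimulated IELs were compared. Gut cells were taken 3 hours later, enriched on Percoll and sorted for CD45, which is found on all leukocytes and does not select T cells. Libraries are called Ex4 1 to 4 and PBS 1 to 4 after their replicate numbers.

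Total counts ran from 13386889 (Ex4 4) to 31843413 (Ex4 3) in the Ex4 group and from 18266449 to 25333644 in the PBS group. Genes of the CD3 complex were abundant in every library, with Cd3e at 642 to 1061 CPM (counts scaled to a common library size with TMM factors) with Ex4 and 581 to 955 CPM with PBS. The natural IEL list was dominated by the granzyme gene Gzma, at 42030 to 54720 CPM with Ex4 and 30610 to 47140 CPM with PBS. Markers of other cells were also present in every library: the B cell receptor gene Cd79a stood at 32.2 to 138 CPM with Ex4 and 40.3 to 127 CPM with PBS, and the epithelial adhesion gene Epcam at 97.4 to 144 CPM with Ex4 and 146 to 184 CPM with PBS. Levels are of bulk samples, in which fewer cells of a type and less RNA per cell cannot be told apart. PBS 1, the library described as 3_PBS, stood apart for several of the genes below, and the log2 fold changes of the 10 genes and the counts of calls among them are also given without it. The name of receptors of conventional T cells was not borne out for every gene: Crtam and Cd27 were highest in PBS 1, where the summed markers of induced and conventional T cells were lowest.

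Set against each other per exon length, the receptors covered a wide range of levels. Crtam, which encodes an adhesion receptor of activated cytotoxic lymphocytes, averaged 44.0 ± 15.0 RPKM (CPM per kilobase of exon) with Ex4 and 82.4 ± 5.61 RPKM with PBS (SD, n = 4 each, as for all values after ±). Slamf7 averaged 29.7 ± 3.16 RPKM with Ex4 and 31.6 ± 3.63 RPKM with PBS. Icos averaged 44.4 ± 14.6 RPKM with Ex4 and 16.2 ± 11.2 RPKM with PBS, so that its place in the order differed between the groups. Cd27 averaged 19.0 ± 2.94 and 21.6 ± 3.54 RPKM in Ex4 and PBS libraries, and Cd2 22.9 ± 8.54 and 13.0 ± 4.55 RPKM.

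The lower part of the order began with Cd6, at 5.30 ± 3.20 RPKM with Ex4 and 2.71 ± 1.65 RPKM with PBS. Cd28, the prototype costimulatory receptor gene, averaged only 2.24 ± 0.982 RPKM with Ex4 and 1.89 ± 0.280 RPKM with PBS. Cd226, Cd5 and Slamf6 had means of 1.90, 0.985 and 0.696 RPKM with Ex4, against 1.73, 0.450 and 0.544 RPKM with PBS. The last place of Slamf6 depends on its exon length, 10832 bases against 4928 for Cd5. In CPM Slamf6 was above Cd5, at means of 7.54 against 4.85 with Ex4 and 5.90 against 2.22 with PBS. Cd5 exceeded Slamf6 per exon length in 3 of 8 libraries. Neighbours in the order were mostly not separated library by library: Slamf7 exceeded Icos in 5 of 8 libraries, Icos exceeded Cd27 in 5 of 8 and Cd28 exceeded Cd226 in 4 of 8. Cd2 exceeded Cd6 in 8 of 8 libraries, which was the clearest step.

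**Figure D1:**
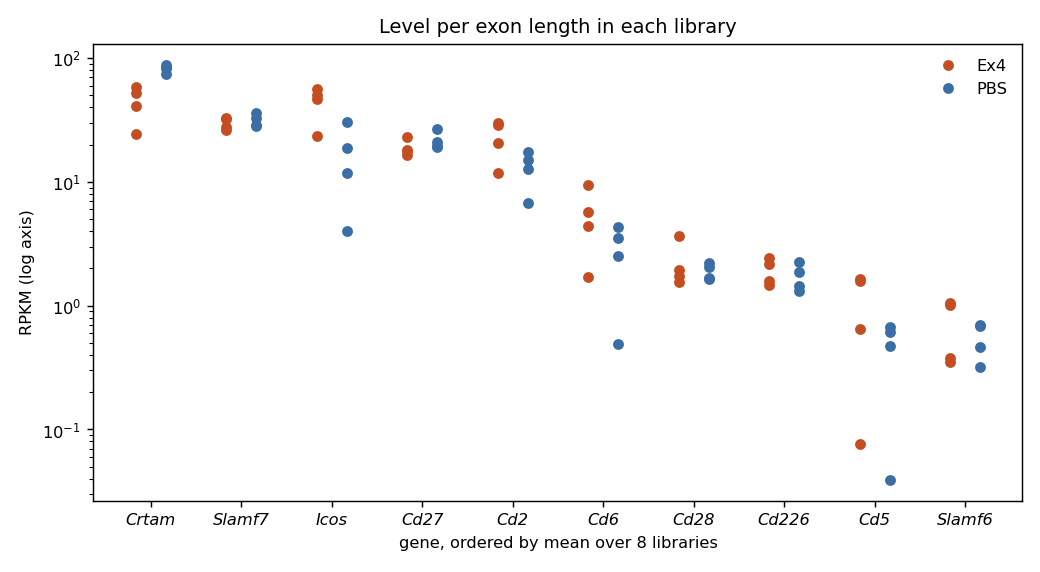
Level of each receptor gene per exon length (RPKM, log axis) in the 4 Ex4 libraries (orange, left) and the 4 PBS libraries (blue, right), ordered by the mean over 8 libraries. Crtam, Slamf7, Icos, Cd27 and Cd2 form the upper part, and the lowest points belong to Cd5 in Ex4 2 and PBS 1.

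Icos encodes the inducible costimulator, which appears on T cells after activation and signals through PI3 kinase. It was at 194, 80.3, 174 and 160 CPM in Ex4 1 to 4, against 13.7, 104, 40.2 and 64.6 CPM in PBS 1 to 4. Of the Ex4 libraries 3 lay above every PBS library, whereas Ex4 2 lay below PBS 2, so the groups overlapped. The log2 fold change of Ex4 over PBS was 1.45 (SE 0.59), and it was 1.11 without PBS 1 and 1.94 without PBS 2. Without Ex4 2 the groups no longer overlapped.

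Cd28 encodes the receptor for CD80 and CD86 that gives the classical second signal. It was at 12.0, 9.59, 22.6 and 10.6 CPM in Ex4 1 to 4, against 10.2, 12.6, 9.97 and 13.4 CPM in PBS 1 to 4. Ex4 3 was high and the other 3 Ex4 libraries lay within or just below the range of the PBS group. Its log2 fold change of 0.25 (SE 0.28) was 0.18 without PBS 1 and changed sign, to -0.13, without Ex4 3.

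Cd28 and Icos lie in one cluster on chromosome 1 with Ctla4, the inhibitory receptor gene whose product binds the same ligands as CD28. In GRCm38, the assembly also called mm10, the GENCODE genes run from 60716800 to 60773359 for Cd28, from 60887000 to 60915832 for Ctla4 and from 60977927 to 61000320 for Icos, all on the plus strand. Ctla4 was at 642, 322, 562 and 516 CPM in Ex4 1 to 4, against 25.3, 353, 199 and 355 CPM in PBS 1 to 4, with a log2 fold change of 1.13 (SE 0.72), and 0.74 without PBS 1. Its lowest library was thus PBS 1 and its lowest Ex4 library Ex4 2, as for Icos. The ratio of Icos to Ctla4 in CPM ran from 0.250 to 0.311 over the Ex4 libraries, against 0.182 to 0.542 over the PBS libraries, with the 0.542 in PBS 1. The ratio of Icos to Cd28 in CPM ran from 7.71 to 16.2 with Ex4, against 1.34 (PBS 1) to 8.28 with PBS.

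**Figure D2:**
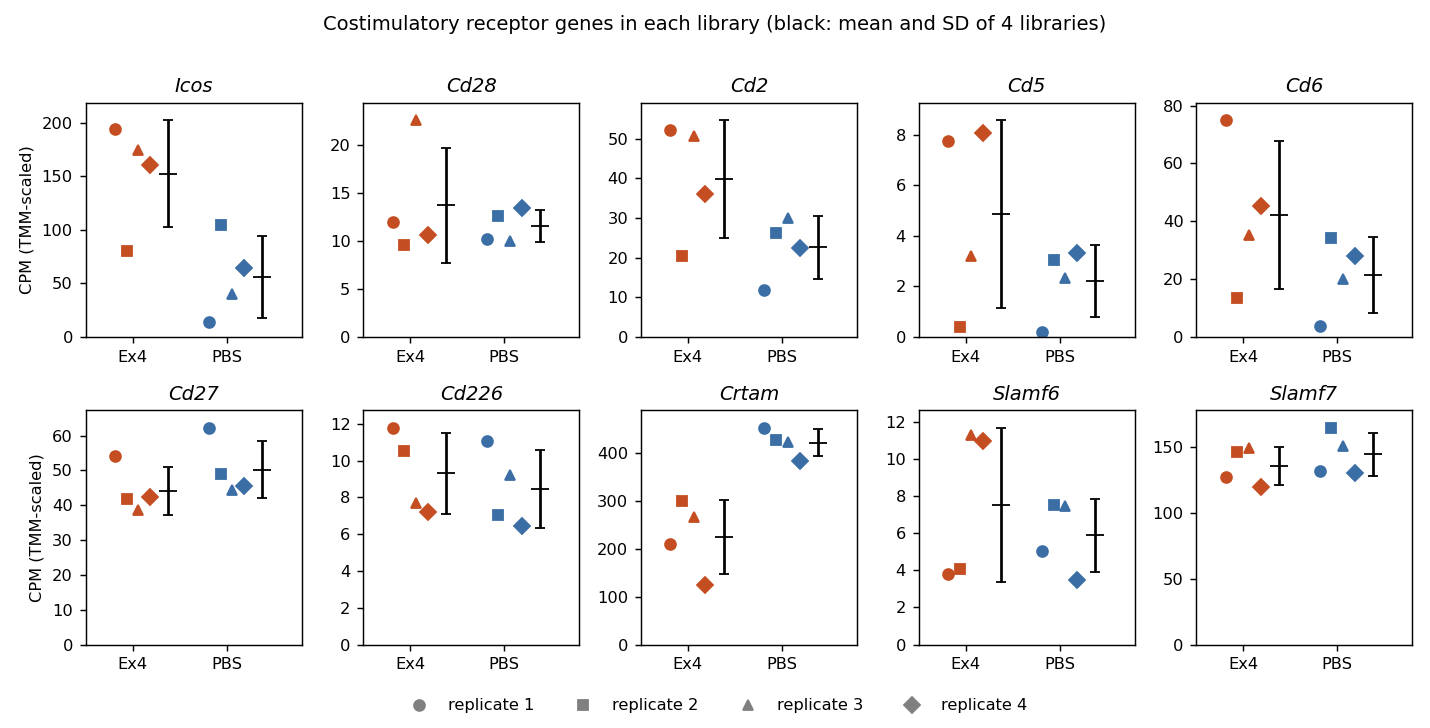
CPM of the 10 genes in each library, Ex4 left and PBS right in each panel, with symbols for replicate numbers and the mean with SD of 4 libraries in black. For Crtam every Ex4 point lies below every PBS point, and for Icos, Cd2, Cd5 and Cd6 the Ex4 2 square and the PBS 1 circle are the lowest of their groups.

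CD2 is an adhesion receptor that in the mouse binds CD48. Cd2 was at 52.2, 20.4, 50.6 and 36.0 CPM in Ex4 1 to 4, against 11.7, 26.3, 30.1 and 22.3 CPM in PBS 1 to 4. As with Icos, 3 Ex4 libraries lay above all PBS libraries and Ex4 2 lay among them. The log2 fold change was 0.82 (SE 0.33), and 0.59 without PBS 1. Cd48, its ligand gene, was nearly level, at 196 ± 21.4 CPM with Ex4 and 199 ± 26.2 CPM with PBS.

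Cd5 and Cd6 encode related receptors with scavenger receptor cysteine-rich domains. CD5 is known to dampen signalling of the T cell receptor, and CD6 binds ALCAM. Cd5 was at 7.75, 0.376, 3.21 and 8.07 CPM in Ex4 1 to 4, against 0.193, 3.03, 2.33 and 3.32 CPM in PBS 1 to 4. The low values rest on 10 counts in Ex4 2 and 4 counts in PBS 1, and their exact 95% Poisson intervals, 0.180 to 0.692 CPM and 0.0524 to 0.493 CPM, lie below the other libraries. These intervals cover counting error only. In each group 1 library therefore held little Cd5, while the other 3 held 16.9 times (Ex4) and 15.0 times (PBS) as much on average.

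Cd6 followed the same order of libraries at both low ends. It was at 75.0, 13.5, 35.2 and 45.2 CPM in Ex4 1 to 4, against 3.90, 34.3, 20.0 and 28.0 CPM in PBS 1 to 4. The groups overlapped for both genes. Log2 fold changes were 1.12 (SE 0.86) for Cd5 and 0.97 (SE 0.71) for Cd6, and 0.73 and 0.61 without PBS 1. For Cd6 it was 0.52 without Ex4 1, the library with the highest value. The 2 genes are neighbours on chromosome 19 on the minus strand, Cd5 from 10717116 to 10739002 and Cd6 from 10789341 to 10830058 in GRCm38.

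Promoter sequences of Cd5 and Slamf7 are shown because these were the least and the most even of the 10 genes across libraries. They are from RefSeq on GRCm38.p6, cover 250 bases before to 50 after a RefSeq start site, and run 5′ to 3′ on the minus strand, Cd5 at chr19:10738925-10739224 and Slamf7 at chr1:171648950-171649249. The start site of the Cd5 window lies 28 bases inside the 5′ end of the GENCODE gene, whereas that of the Slamf7 window lies 4036 bases inside, so it is not the outermost start of Slamf7. Capitals mark the letters GGAAA, the core bound by NFAT factors, and TGAGTCA or TGACTCA, bound by AP-1, on either strand.
Cd5: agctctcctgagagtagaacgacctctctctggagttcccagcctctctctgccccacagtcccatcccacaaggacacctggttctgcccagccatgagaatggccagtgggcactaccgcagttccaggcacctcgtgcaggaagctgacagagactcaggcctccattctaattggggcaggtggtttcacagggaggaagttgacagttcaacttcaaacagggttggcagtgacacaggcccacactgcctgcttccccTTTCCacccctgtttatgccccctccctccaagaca
Slamf7: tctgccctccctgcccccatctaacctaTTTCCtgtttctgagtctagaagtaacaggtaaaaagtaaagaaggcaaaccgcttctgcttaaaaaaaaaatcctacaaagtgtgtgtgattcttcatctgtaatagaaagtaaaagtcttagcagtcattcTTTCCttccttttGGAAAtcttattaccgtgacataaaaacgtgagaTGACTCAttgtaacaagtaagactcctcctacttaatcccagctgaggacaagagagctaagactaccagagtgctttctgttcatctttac
The Cd5 window held 1 NFAT core, and the Slamf7 window held 3 of them and 1 AP-1 site, with no overlap between the motifs. Of 27025 promoters of this length 61.3% held the NFAT core and 5.17% the AP-1 site. Entries were matched for 4 of the 10 genes, the others being Slamf6 and Cd27. None of these 4 windows held the full cAMP response element TGACGTCA, which 1.88% of all promoters held. A match describes letters in a window and not a bound site.

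Cd27 encodes a TNF family receptor that binds CD70. It was at 54.1, 41.7, 38.5 and 42.3 CPM in Ex4 1 to 4, against 62.2, 49.0, 44.3 and 45.5 CPM in PBS 1 to 4. PBS 1, the lowest library for Icos, Cd2, Cd5 and Cd6, was the highest for Cd27, and Ex4 1 lay above 3 of the PBS libraries. The log2 fold change was -0.19 (SE 0.16), and -0.076 without PBS 1. Cd27 overlaps Vamp1 on the opposite strand, and the strand setting of the counting is not known here. The ratio of Cd6 to Cd27 in CPM ran from 0.325 (Ex4 2) to 1.39 with Ex4, against 0.0626 (PBS 1) to 0.701 with PBS.

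Cd226 and Crtam encode adhesion receptors for nectins and nectin-like proteins on target cells. CD226 binds the poliovirus receptor PVR and nectin-2, and CRTAM binds CADM1. Cd226 was at 11.8, 10.5, 7.69 and 7.22 CPM in Ex4 1 to 4, against 11.1, 7.05, 9.23 and 6.47 CPM in PBS 1 to 4, and the groups covered almost the same range. Its log2 fold change was 0.14 (SE 0.28), and 0.29 without PBS 1.

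Crtam was at 210, 301, 267 and 125 CPM in Ex4 1 to 4, against 454, 429, 424 and 384 CPM in PBS 1 to 4. It was the only one of the 10 genes whose groups did not overlap, and all 4 Ex4 libraries were lower. Ex4 4, the shallowest library, held the lowest value on 1761 counts. The log2 fold change was -0.90 (SE 0.21), and -0.88 without PBS 1. It ran from -1.10 without Ex4 2 to -0.72 without Ex4 4. The coefficient of variation was 34.1% over the Ex4 libraries and 6.82% over the PBS libraries. The ratio of Crtam to Cd226 in CPM ran from 17.3 to 34.7 with Ex4, against 41.0 to 60.8 with PBS.

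Slamf6 and Slamf7 encode receptors that bind themselves on neighbouring cells and signal through small SH2 adaptors. Slamf6 was at 3.81, 4.06, 11.3 and 11.0 CPM in Ex4 1 to 4, against 5.05, 7.55, 7.49 and 3.49 CPM in PBS 1 to 4. The Ex4 group split into 2 low and 2 high libraries, which lay around most of the PBS values. The log2 fold change of 0.35 (SE 0.41) was 0.27 without PBS 1 and 0.056 without Ex4 3. Slamf6 overlaps an antisense gene, Gm37065, that the table also lists.

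Slamf7 was at 127, 146, 149 and 120 CPM in Ex4 1 to 4, against 132, 165, 151 and 130 CPM in PBS 1 to 4. Its 8 values lay within 1.37-fold of each other. The log2 fold change was -0.090 (SE 0.13), and -0.14 without PBS 1. SLAMF7 is also found on plasma cells, and the summed level of the 8 B and plasma cell markers ran from 271 to 2240 CPM with Ex4, against 864 to 1477 CPM with PBS. Their part in the level of Slamf7 was not tested.

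Both genes belong to a SLAM cluster on chromosome 1, Slamf7 from 171632403 to 171653035 on the minus strand and Slamf6 from 171917515 to 171953170 on the plus strand. Of the other cluster genes, Slamf1 had a log2 fold change of 0.67 (SE 0.24), Cd84 of 0.059 (SE 0.18) and Cd48 of -0.021 (SE 0.14). Cd244a, a receptor gene of cytotoxic cells whose product binds CD48, had -0.45 (SE 0.22), and Ly9 -0.33 (SE 0.22). Without PBS 1 they were 0.51 for Slamf1, 0.26 for Cd84, 0.055 for Cd48, whose sign thus changed, -0.20 for Cd244a and -0.16 for Ly9. Cd244a and Ly9 overlap on opposite strands. Cd244a was at 148 to 260 CPM with Ex4, against 417 CPM in PBS 1, its highest library, and 216 to 248 CPM in the other PBS libraries. Values in the cluster thus lay on both sides of 0.

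**Figure D3:**
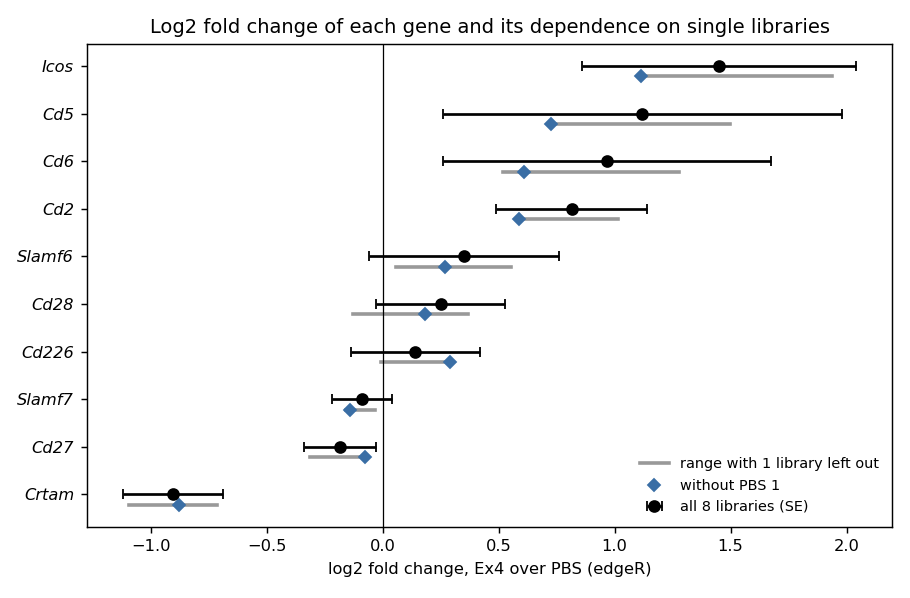
Log2 fold change of Ex4 over PBS for the 10 genes (black, with SE, all 8 libraries), with the range when 1 library is left out (grey) and the value without PBS 1 (blue diamond). Crtam stays below -0.7 and Icos above 1.1 throughout, whereas the grey lines of Cd28 and Cd226 cross 0.

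In the fit over all 14691 genes 0 of the 10 receptors passed an adjusted p of 0.05 in the edgeR quasi-likelihood test, where 0.0136% of all genes passed. At an unadjusted p under 0.05 edgeR gave 2 higher (Icos and Cd2) and 1 lower (Crtam), beside 3.71% of all genes higher and 3.9% lower. In limma-voom 0 passed an adjusted p of 0.05, with 1 higher and 1 lower at an unadjusted p under 0.05, beside 4.08% and 3.81% of all genes. DESeq2 called 1 of 10, Crtam (log2 fold change -0.92, adjusted p = 0.022), beside 0.32% of all genes. With log2 total counts as a covariate edgeR also called Crtam (log2 fold change -1.09, adjusted p = 0.0317), beside 0.0136% of all genes, whereas its adjusted p was 0.31 without the covariate. Without PBS 1 edgeR called 0 of 10, beside 0.00658% of all genes. The adjusted p of the other 9 genes was at least 0.586 in the edgeR test.

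By position, 7 of 10 genes had a log2 fold change above 0, beside 52.9% of all genes tested, and their median was 0.30 against 0.02 over all genes. Without PBS 1 the count above 0 was again 7, beside 52.8%, and the median 0.28. Groups did not overlap for 0 genes in the higher direction, beside 2.29% of all genes, and for 1 gene, Crtam, in the lower direction, beside 2.66%. Without PBS 1 these counts were 0 beside 3.2% and 1 beside 4.03%. Without Ex4 2 Icos, Cd2 and Cd6 did not overlap in the higher direction, 3 of 10 beside 4.17% of all genes. Icos alone did so without PBS 2, beside 4.67%, and without both PBS 2 and Ex4 3, beside 7.43%. Without Ex4 1 Cd27 joined Crtam in the lower direction, 2 of 10 beside 3.85%. Since the genes were chosen with this contrast known, nothing is read from these counts.

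The spread within groups was also visible when the genes were chosen and is given as a description. The pooled SD of log2 CPM within groups was 1.82 for Cd5, larger than for 99.5% of the genes tested, 1.24 for Cd6 (93.9%) and 0.97 for Icos (87.8%). It was 0.61 for Cd2 (72.4%), 0.71 for Slamf6 (77.4%), 0.42 for Cd28 (58.2%), 0.40 for Crtam (56.8%) and 0.35 for Cd226 (50.6%). For Cd27 and Slamf7 it was 0.22 (26.1%) and 0.16 (10.5%). Genes at low counts, such as Cd5, have a larger SD from counting alone, and Icos had at least 285 counts in every library.

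The uneven genes shared their extreme libraries. PBS 1 was the lowest of 8 libraries for Icos, Cd2, Cd5 and Cd6, 4 of the 10 genes, and the highest for Cd27 and Crtam. Ex4 2 was the lowest Ex4 library for the same 4 genes and for Cd28. Ex4 1 was the highest of all 8 libraries for Icos, Cd2, Cd6 and Cd226. Relative to the mean of the 8 libraries, on the log2(CPM + 0.1) scale, Ex4 2 stood at 0.01 for Icos, -0.47 for Cd2, -0.84 for Cd6 and -2.27 for Cd5. On the same scale PBS 1 stood at -2.53 for Icos, -1.26 for Cd2, -2.61 for Cd6 and -2.97 for Cd5.

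**Figure D4:**
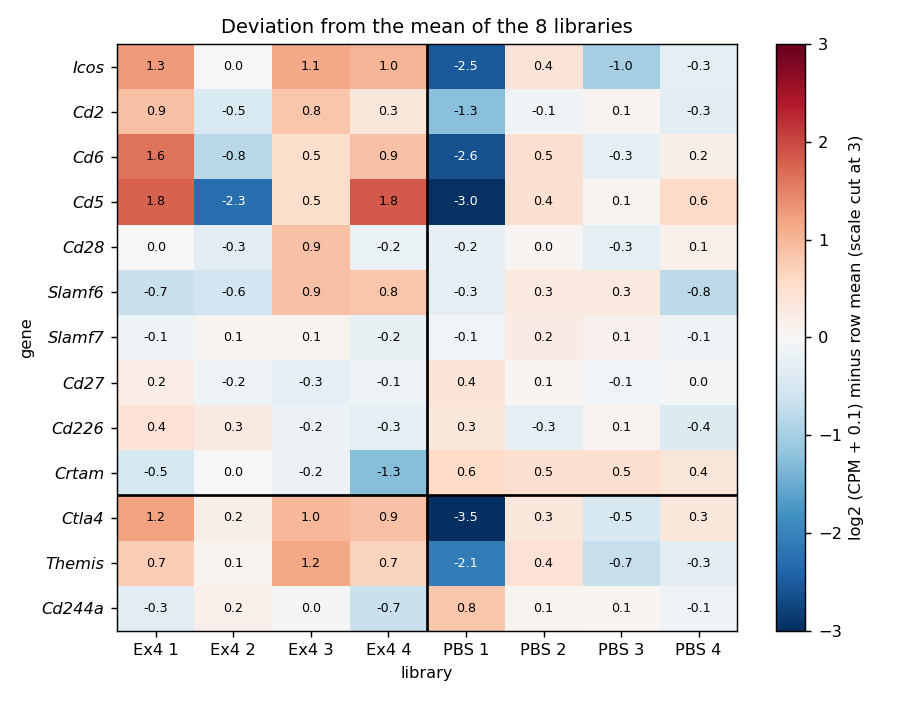
Deviation of log2(CPM + 0.1) from the mean of the 8 libraries for the 10 genes and, under the line, for Ctla4, Themis and Cd244a, with Ex4 libraries left and PBS libraries right. The PBS 1 column is low for Icos, Cd2, Cd6, Cd5, Ctla4 and Themis and high for Crtam, Cd27 and Cd244a.

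Markers of cell types also differed between libraries. The 15 markers of induced and conventional T cells summed to 495 to 699 CPM with Ex4 and 415 to 552 CPM with PBS, lowest in PBS 1, and none of them was at 0 in any library. Within the Ex4 group the sum did not follow the receptors, since Ex4 2, low for Icos, Cd2, Cd5 and Cd6, had 550 CPM, above Ex4 1 (530 CPM) and Ex4 4 (495 CPM). Their median log2 fold change was 0.43 over 15 genes, 11 of them above 0, and 0.28 without PBS 1. Themis, a gene of T cell selection in the thymus, was at 12.6 to 26.5 CPM with Ex4, against 2.70 CPM in PBS 1 and 7.29 to 16.1 CPM in the other PBS libraries. The coreceptor gene Cd8b1, at 23.6 to 44.2 CPM with Ex4 and 20.7 to 33.5 CPM with PBS, was also lowest in PBS 1. Cd4 was low throughout, at 4.42 to 17.1 CPM with Ex4 and 4.71 to 6.06 CPM with PBS, and its 17.1 CPM came from Ex4 1, the highest library for Icos, Cd2 and Cd6. Its lowest value, 4.42 CPM, came from Ex4 3, the next highest library for Icos and Cd2.

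Natural IEL markers were mixed. The 11 markers summed to 47760 to 61260 CPM with Ex4 and 38760 (PBS 1) to 54090 CPM with PBS, a sum carried by Gzma, with none at 0 in any library. Cd8a was at 953 to 1219 CPM with Ex4, against 2074 CPM in PBS 1 and 1363 to 1513 CPM in the other PBS libraries. Cd7 was at 1457 to 1659 CPM with Ex4, against 2513 CPM in PBS 1 and 1334 to 1698 CPM in the other PBS libraries. The stem cell factor receptor gene Kit was at 23.9 to 41.3 CPM with Ex4, against 146 CPM in PBS 1 and 33.8 to 49.0 CPM in the other PBS libraries. PBS 1 was thus the highest of 8 libraries for these 3 genes. Of innate lymphoid markers, Rora was at 17.1 to 53.6 CPM with Ex4 and 7.36 (PBS 1) to 19.5 CPM with PBS, and Il23r was at 0 in PBS 2. The 8 markers of this list summed to 142 to 240 CPM with Ex4 and 131 to 190 CPM with PBS. In edgeR 0 markers of these 3 lists passed over all genes. At an unadjusted p under 0.05, which 3.71% of all genes passed in the higher and 3.9% in the lower direction, they gave 2 higher of 15, 1 lower of 11 and 2 higher of 7 tested. DESeq2 called Rora, and limma-voom called 0 of them. The part of the cell types present in the values of the receptors was not tested.

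Ligand genes of the receptors were also counted in the sorted cells, where 11 were in the table and 10 were tested. In edgeR 0 passed, with 2 higher and 1 lower at an unadjusted p under 0.05 (3.71% and 3.9% of all genes), and DESeq2 and limma-voom called 0. Their median log2 fold change was 0.11, and 6 of 10 were above 0. This median was 0.15 without PBS 1, ran from -0.039 (without PBS 4) to 0.22 (without PBS 2) with 1 library left out, and was 0.0062 in limma-voom. Icosl, the ligand gene of ICOS, was at 14.4, 23.5, 16.5 and 25.6 CPM in Ex4 1 to 4, against 46.8, 26.4, 27.3 and 25.0 CPM in PBS 1 to 4 (log2 fold change -0.65, SE 0.24, and -0.40 without PBS 1). Its highest library was PBS 1, the lowest for Icos. Pvr, a ligand gene of CD226, was at 24.6 to 32.0 CPM with Ex4 and 14.2 to 24.5 CPM with PBS (0.48, SE 0.19, and 0.33 without PBS 1), without overlap. Nectin3, at low counts, did not overlap in the lower direction, at 0.842 to 1.345 CPM with Ex4 and 1.444 to 2.448 CPM with PBS (-0.93, SE 0.505). Groups thus did not overlap for 1 of 10 ligand genes in each direction, beside 2.29% of all genes higher and 2.66% lower. Cd72 was at 47.6 to 91.3 CPM with Ex4 and 47.9 to 79.1 CPM with PBS. Cd70, the ligand gene of CD27, was not tested because its counts were too low, with a mean of 0.164 CPM with Ex4 and 0.182 CPM with PBS.

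Signalling partners of the receptors numbered 21, all tested. In edgeR 0 passed, with 2 higher and 4 lower at an unadjusted p under 0.05 (3.71% and 3.9% of all genes), and DESeq2 and limma-voom called 0. The median log2 fold change was -0.0020, and 10 of 21 were above 0. It was -0.033 without PBS 1 and ran from -0.095 (without PBS 4) to 0.018 (without PBS 2) with 1 library left out. Pik3cd, the leukocyte PI3 kinase subunit gene, was at 126, 143, 127 and 107 CPM in Ex4 1 to 4, against 221, 179, 147 and 164 CPM in PBS 1 to 4 (-0.50, SE 0.15, and -0.38 without PBS 1). Siva1, whose product binds the tail of CD27, was at 45.0 to 56.3 CPM with Ex4 and 58.3 to 76.7 CPM with PBS (-0.44, SE 0.14, and -0.41 without PBS 1). Both genes were named for their small p in this same contrast. For both every Ex4 library lay below every PBS library, 2 of 21 partners beside 2.66% of all genes. The kinase gene Lck and the adaptor gene Sh2d2a were the most abundant, at 1352 to 1945 and 783 to 1164 CPM with Ex4, against 1681 to 2513 and 636 to 1222 CPM with PBS.

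Of 20 relatives, other costimulatory and inhibitory receptors of the same families, 19 were in the table and tested. In edgeR 0 passed, with 2 higher and 0 lower at an unadjusted p under 0.05 (3.71% and 3.9% of all genes), and DESeq2 and limma-voom called 0. The median log2 fold change was 0.033, and 10 of 19 were above 0. It ran from -0.091 (without PBS 3) to 0.12 (without PBS 1) with 1 library left out, so its sign depended on the libraries. Tnfrsf8, which encodes CD30, was at 31.4, 6.02, 15.4 and 30.1 CPM in Ex4 1 to 4, against 3.08, 10.8, 6.60 and 9.11 CPM in PBS 1 to 4 (1.48, SE 0.52, and 1.21 without PBS 1). Its lowest libraries were again PBS 1 and Ex4 2. The abundant TNF receptor family genes Tnfrsf9 and Tnfrsf18 had log2 fold changes of -0.0051 (SE 0.16) and 0.033 (SE 0.17), and of -0.13 and -0.017 without PBS 1. Slamf1 was at 19.3 to 39.3 CPM with Ex4 and 11.6 (PBS 1) to 20.0 CPM with PBS.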

How the data were processed

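RNA of CD45-sorted gut cells from 8 mice was sequenced as strand-specific mRNA libraries, per the labels' protocols. The deposited values are raw counts for each gene symbol, as whole numbers. The submitters' processing notes name STAR 2.7.9a, the build mm10 and DESeq2 but no role for them, and the sources used here do not say which tool and annotation gave the counts. The 8 columns were matched to mice by their descriptions, and 0 columns were left unused. No replicate pair agreed within sampling noise (mean chi-square per gene 24.5 to 93.0, over genes with 50 counts or more in the pair). The labels describe separate mice.

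The test was edgeR 4.0.16 in R 4.3.3 (filterByExpr, TMM, robust quasi-likelihood F test, Benjamini-Hochberg over 14691 genes, threshold 0.05). In counts simulated for this comparison, with 200 of 14691 genes altered, edgeR found 8.62% of the 1.5-fold, 50% of the 2-fold and 66.2% of the 3-fold differences, and 10 of its 98 calls were false. Of the DESeq2 calls in the same simulated counts 36 of 139 were false, and of the limma-voom calls 6 of 91. The call of Crtam by DESeq2 thus came from the tool with the most false calls there. SEs were derived from the fold change and its F statistic. CPM are counts scaled to TMM library sizes, and RPKM divides them by the union of GENCODE exons. Alternatives were DESeq2 1.42.0 with default filtering, limma-voom (limma 3.58.1), other scaling, no filter, libraries left out and covariates. Python 3.11.15, pandas 2.3.3 and matplotlib 3.10.9 made tables and figures. The receptors and gene lists were chosen with earlier results of these data known. Named list genes were the 2 with the smallest p and the 2 most abundant per list, and fixed cluster and marker genes. Cd70 was named after its values were seen.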

Additional observations from a re-analysis of the deposited data

Results flagged for a closer look

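For the named genes and the summed level of each list, the distance of an extreme library to its neighbour was compared with the range of its group of 4. Their ratio exceeded Dixon's 95% limit in 9 of 134 groups, where chance passes about 1 in 20. Cd5 was low in PBS 1 (ratio 0.861). It was the only one of the 10 receptor genes with such a value. PBS 1 was also high for Icosl (0.862) and for the summed B and plasma cell markers (0.832). Ex4 4 was low for Lck (0.839), low for the summed signalling partners (0.837) and high for the transcription factor gene Gata3 (0.866). Ex4 1 was high for the integrin gene Itgax (0.861) and low for the summed epithelial markers (0.885). Ly9 was high in Ex4 3 (0.976). The cause of these values was not tested.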

How the results depend on the processing

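Over 17 alternatives Icos, Cd2, Cd5, Cd6 and Slamf6 kept a positive log2 fold change and Crtam, Cd27 and Slamf7 a negative one. Crtam ran from -1.10 to -0.72 and Icos from 1.11 to 1.94. Cd28 changed sign without Ex4 3 (range with 1 library left out -0.13 to 0.37) and without both PBS 2 and Ex4 3 (-0.074), and Cd226 without Ex4 1 (-0.0074 to 0.29). Genes called higher and lower were 2 and 0 in edgeR, 31 and 23 in DESeq2, 1 and 0 in limma-voom, 5 and 3 without the low-count filter, 1 and 1 with log2 total counts, and 1 and 0 with the replicate block. With 1 library left out they ran from 1 to 10 and from 0 to 4, the 10 and 4 without PBS 2. DESeq2 and the covariate of total counts each called 1 of the 10 receptors, Crtam, and every other alternative 0. Receptors without overlap numbered 0 to 3 higher and 1 to 2 lower with 1 library left out (2 lower, Cd27 and Crtam, without Ex4 1), and 1 higher (Icos) without both PBS 2 and Ex4 3. The median of the 10 genes ran from 0.13 without Ex4 3 to 0.45 without Ex4 2. The cause of these changes was not tested. Same-numbered libraries correlated at 0.090, -0.027, -0.24 and 0.14 in their deviations from the group means. Differently numbered ones ran from -0.34 (Ex4 4 with PBS 2) to 0.36 (Ex4 3 with PBS 2). With so wide a scatter, these values cannot tell whether replicate numbers pair the samples. With the replicate block 0 receptors were called and Icos had a log2 fold change of 1.70. Low counts limit the precision of Cd5, which rested on 4 counts in PBS 1 and 10 in Ex4 2. Total counts were 19477917 in PBS 1 and 26778167 in Ex4 2, and Ex4 4, the shallowest library, held 114 counts of Cd5. A link of the low Cd5 counts to depth was not tested.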

Other observations

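Some markers of other cells differed between libraries without a call in edgeR over all genes. Of 9 markers of macrophages, monocytes and dendritic cells, Cd68, a lysosomal protein gene of macrophages, was at 38.2 to 61.6 CPM with Ex4 and 25.7 to 40.7 CPM with PBS (log2 fold change 0.56, SE 0.18). Xcr1, a chemokine receptor gene of cross-presenting dendritic cells, was at 7.79 to 12.9 CPM with Ex4 and 14.1 to 19.4 CPM with PBS (-0.65, SE 0.22), without overlap. That was 1 of 9 markers in the lower direction, beside 2.66% of all genes. Lyz2, a lysozyme gene of myeloid cells, was at 8.71 to 21.5 CPM with Ex4, against 57.4 CPM in PBS 1 and 11.9 to 23.0 CPM in the other PBS libraries. Of 10 epithelial markers 9 had a log2 fold change below 0, with a median of -0.48 (-0.24 without PBS 3 and -0.75 without PBS 1). Krt20, a keratin gene of mature enterocytes, was at 33.5 to 69.1 CPM with Ex4 and 55.4 to 147 CPM with PBS. The plasma cell gene Jchain ran from 146 to 1762 CPM with Ex4 and from 511 to 1304 CPM with PBS. Ncr1, an NK cell receptor gene, was at 3.89 to 8.93 CPM with Ex4 and 7.71 to 13.5 CPM with PBS.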
